A study of Mus musculus with 3 samples.

Results

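The genes described here encode 10 factors that cut and polyadenylate nascent messenger RNA or release RNA polymerase II behind the cut. They were taken by symbol, Cpsf1, Cpsf2, Cpsf3, Cpsf4, Cpsf6, Cstf1, Cstf3, Pcf11, Nudt21 and Xrn2, and all 10 of them were found among the 32285 genes of the files. The cells were E14 embryonic stem cells, a mouse line of 129/Ola background, kept in medium with serum and leukaemia inhibitory factor. Tubercidin, an analogue of the nucleoside adenosine, was added at 10 uM, and cells were taken 3 h or 6 h later; controls had 6 h with its solvent, DMSO. Each condition was a single library of droplet single-cell RNA sequencing with the 10x Genomics 3' chemistry, so all 3 libraries share the line and the medium, and treatment cannot be told apart from culture or library. No difference below was tested, no p-value is given, and every interval is an exact 95% interval for counting error only.

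Nearly every messenger RNA ends in a cut made some bases after a poly(A) signal, usually AAUAAA. The cleavage and polyadenylation specificity factor (CPSF) reads this signal and makes the cut. The cleavage stimulation factor (CstF) binds U-rich or GU-rich RNA after the cut site, cleavage factor I binds UGUA before it and influences which of several sites is used, and cleavage factor II links the complex to the polymerase. The 5' to 3' exonuclease XRN2 then degrades the RNA still attached to the polymerase, which helps transcription to stop.

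The mRNAs of these factors are themselves made through such signals, and the assay captures RNA by the tail added there. For each gene 1 complete protein-coding transcript of GENCODE M21 (GRCm38, the mm10 build named in the submitters' processing notes) was searched, on the transcript's strand only, in its last 50 bases for AATAAA and ATTAAA. The former was present in 6 of the 10 transcripts and one or the other in 8, against 57.0% and 69.6% of 21547 protein-coding genes searched in the same way. Cpsf1 and Cpsf3 had neither in this window. TGTA, which can share its last base with AATAAA, was found in the last 100 bases of 5 of the 10, against 49.6% of those genes. The sites of the 6 members whose levels the results below turn on are shown 5' to 3' over 30 bases with the hexamer in capitals. All lie in the 3' UTR part of the last exon: Nudt21 at chr8:94015500-94015529 on the minus strand, Cpsf6 at chr10:117349042-117349071 on the minus strand, and on the plus strand Cpsf4 at chr5:145182010-145182039, Cstf1 at chr2:172382412-172382441, Cstf3 at chr2:104665393-104665422 and Xrn2 at chr2:147077968-147077997.
Nudt21: cactgttatttcAATAAAaatatttaaaac
Cpsf6: atgtagtgttgtAATAAActgtttatgggg
Cpsf4: tctatgaggttgATTAAAaagcttgttttt
Cstf1: tgtgatttctaaAATAAAttttttttatat
Cstf3: tcctttgaaaggAATAAAaggacctcaaaa
Xrn2: taaaaaaataaaAATAAAgctaaactttaa
Of these 6 marked hexamers 5 are AATAAA and that of Cpsf4 is ATTAAA. The last AATAAA of the window was marked, or without one the last ATTAAA. The Xrn2 stretch holds another AATAAA directly before the marked one. The deposited counts add all ends of a gene together, so they do not show how often any of these sites was used.

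There were 2031 called cells from the control, 2365 after 3 h and 2926 after 6 h, which held 104892739, 29892000 and 24681924 unique molecular identifiers (UMIs, each standing for 1 captured RNA molecule). The median cell had 48452, 11877 and 8004.5 UMIs. Each pair of libraries shared 1 cell barcode. All 8 stem cell markers, among them Pou5f1 and Nanog, stood at 50.2 CPM or more in every library. The summed markers of other cell types were low: at most 0.689 CPM for 6 genes of 2-cell-like cells, with 5, 6 and 3 of them at 0 in the control, 3 h and 6 h libraries, at most 10.8 CPM for 6 of primitive endoderm, 2.11 CPM for 6 of fibroblasts and 13.1 CPM for 6 of trophoblast. By GENCODE M21 coordinates no member overlaps another gene of the files on its own strand, and 5 (Cpsf1, Cpsf2, Cpsf3, Cstf3 and Pcf11) overlap 1 on the opposite strand. Genes absent from the files were not searched here. The strand setting of the counting is not given in the sources used here.

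Levels are given as UMIs summed over the cells of a library and scaled to counts per 1000000 (CPM), and differences as the log2 ratio of CPM + 1, with the interval of the ratio without that pseudocount. None of the 10 factors differed by 2-fold in any comparison. At 3 h against the control their log2 ratios ran from -0.28 to 0.38 with a median of -0.02, while the median of all 7884 genes averaging 10 CPM or more was -0.27; of those genes 0.888% were higher by 2-fold or more and 5.54% lower by as much. At 6 h the members ran from -0.60 to 0.25 with a median of -0.03, the median gene was at -0.12, and 2.33% of all genes were 2-fold higher and 4.41% lower. Between 6 h and 3 h the members ran from -0.45 to 0.33 with a median of 0.02. The median gene was at 0.14, and the shares were 1.64% and 0.165%. With so few genes past 2-fold, a count of 0 among 10 is near the background in every comparison.

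At 3 h 9 of the 10 factors had a higher ratio than the median gene, and Nudt21 lay just under it. This count was 7 against genes averaging 50 CPM or more and 4 when genes of any level were counted. At 6 h 5 of the 10 lay above the median gene. Zero on this scale depends on how libraries are set against each other: median-of-ratios size factors moved the median of all genes by 0.23 and TMM factors by 0.19 after 3 h, by 0.01 and -0.03 after 6 h, and by -0.22 and -0.21 between 6 h and 3 h. With the former, all genes higher and lower by 2-fold numbered 140 and 167 after 3 h, in place of 70 and 437, and 57 and 46 between 6 h and 3 h, in place of 129 and 13. The positions below are therefore given against the median gene as well as against 0.

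**Figure D1:**
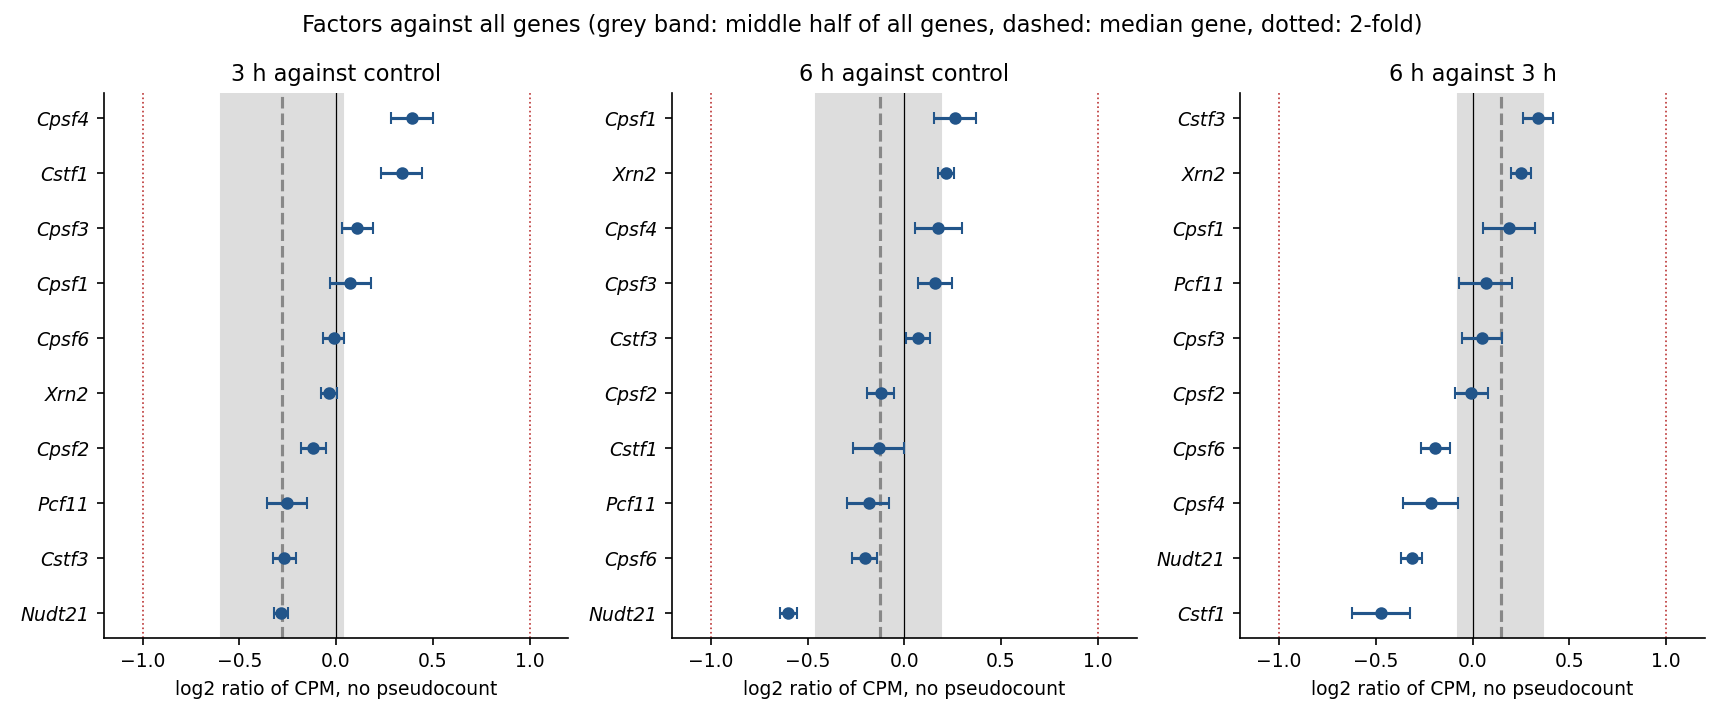
Log2 ratio of CPM without a pseudocount (x axis) for each of the 10 factors (points, with exact 95% counting intervals) in the 3 comparisons. The grey band runs from the lower to the upper quartile of all genes averaging 10 CPM or more, the dashed line is their median and the dotted lines mark 2-fold; no factor reaches 2-fold, and Nudt21 lies below the band after 6 h.

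The CPSF subunits among the 10 are Cpsf1, Cpsf2, Cpsf3 and Cpsf4, and their ratios to the control stayed between -0.12 and 0.38. Cpsf3 encodes the endonuclease that makes the cut. It stood at 49.1 CPM in control cells, 53.0 CPM after 3 h and 54.9 CPM after 6 h. The treated libraries were slightly above the control, with log2 ratios of 0.11 (interval 0.03 to 0.19) and 0.16 (0.07 to 0.25), and did not differ from each other beyond counting error (-0.06 to 0.16), although median-of-ratios factors put 6 h below 3 h by -0.17. Cpsf2, a catalytically inactive relative of CPSF3 that is its partner, stood at 89.7, 82.7 and 82.4 CPM. Both treated libraries were below the control by -0.12, and after 3 h this sign turned under median-of-ratios and TMM scaling, to 0.12 and 0.07. Against the median gene Cpsf2 was 0.16 above after 3 h and level with it after 6 h.

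Cpsf1, the largest subunit and a scaffold of the complex, stood at 29.9, 31.4 and 35.8 CPM. Its 3 h interval (-0.03 to 0.18) held 0, and after 6 h it had the highest ratio of the 10, 0.25 (0.15 to 0.37), with 79.1% of all genes lower. Cpsf4, a zinc finger subunit that helps to bind the AAUAAA signal, stood at 24.7 CPM in control cells, 32.5 CPM after 3 h and 27.9 CPM after 6 h. Its 3 h level was the highest and the control the lowest, with no overlap of the counting intervals (30.4 to 34.6 CPM after 3 h, 23.8 to 25.7 CPM in control cells, 25.9 to 30.1 CPM after 6 h). The 3 h ratio of 0.38 (0.29 to 0.50) was the highest of the 10, with 92.1% of all genes lower, and was 0.61 with median-of-ratios factors. At 6 h the ratio was 0.17 (0.05 to 0.30).

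The CstF subunits Cstf1 and Cstf3 took opposite courses. Cstf1, a WD-repeat subunit that helps to hold the complex together, stood at 25.5 CPM in control cells, 32.2 CPM after 3 h and 23.3 CPM after 6 h. Only the 3 h library was high: its log2 ratio was 0.33 (0.23 to 0.45), 0.60 above the median gene, while after 6 h it was -0.13, with an upper bound just below 0, and level with the median gene. Between 6 h and 3 h Cstf1 had the lowest ratio of the 10, -0.45 (-0.62 to -0.32), and only 3.58% of all genes were lower. Cstf3, the central scaffold of CstF, stood at 107 CPM, 89.2 CPM and 113 CPM. Here the 3 h library was low: its ratio was -0.26 (-0.33 to -0.21), 0.0083 above the median gene. At 6 h the ratio was 0.07 (0.01 to 0.13). Between 6 h and 3 h it was 0.33 (0.26 to 0.42), the highest of the 10. Both genes kept these signs under median-of-ratios and TMM factors, where Cstf3 after 3 h came closest to 0 (-0.03 and -0.07).

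The largest CPM ratio to the control, in either direction, was that of a cleavage factor I gene after 6 h. Against the median gene Cpsf4 and Cstf1 after 3 h (0.65 and 0.60) were farther off. Nudt21 encodes the small subunit of this factor, the protein that contacts UGUA. It stood at 277 CPM in control cells (interval 274 to 280), 227 CPM after 3 h (222 to 233) and 183 CPM after 6 h (178 to 188). The 3 levels in CPM were separate, highest in the control and lowest after 6 h. Against the control the log2 ratio was -0.28 (-0.32 to -0.25) after 3 h, where the median gene was also at -0.27, and -0.60 (-0.64 to -0.55) after 6 h, 0.48 below the median gene. At 6 h 16.5% of all genes had a lower ratio, so this size was not rare. Median-of-ratios and TMM factors gave -0.58 and -0.63 after 6 h, but only -0.04 and -0.09 after 3 h, so the step from the control to 3 h rests on the CPM scaling.

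Cpsf6, the larger partner of NUDT21 in cleavage factor I, shared that course only in part. It stood at 111 CPM in control cells, 110 CPM after 3 h and 96.1 CPM after 6 h. The control and 3 h did not differ beyond counting error (-0.07 to 0.04), although median-of-ratios and TMM factors put 3 h at 0.23 and 0.18, and the 6 h library was lower by a log2 ratio of -0.20 (-0.27 to -0.14), 0.08 below the median gene. Cpsf7, the alternative large subunit, stood at 32.5, 25.9 and 30.6 CPM, lower after 3 h (-0.32, interval -0.44 to -0.22) and within counting error of the control after 6 h (-0.20 to 0.03). With median-of-ratios factors its 3 h ratio was -0.09.

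The genes whose ratios after 3 h and 6 h came nearest to those of Nudt21, by Euclidean distance over the 3 libraries among 7615 named genes, were Paics, Nmd3 and Bin3, with Nmd3 and Bin3 at a distance of 0.021 and Paics nearer. Paics encodes an enzyme of purine synthesis and stood at 272, 225 and 179 CPM. Nmd3 encodes the export adaptor of the large ribosomal subunit and stood at 105, 87.2 and 68.8 CPM.

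Pcf11 encodes the cleavage factor II subunit that binds the tail of RNA polymerase II. It stood at 38.5 CPM in control cells, 32.3 CPM after 3 h and 33.9 CPM after 6 h. Both treated libraries were below the control, with log2 ratios of -0.25 (-0.36 to -0.15) and -0.18 (-0.29 to -0.08), which lay 0.03 above and 0.06 below the median gene. Clp1, the RNA kinase that is its partner in cleavage factor II, stood at 48.3, 19.1 and 29.0 CPM, with log2 ratios of -1.29 (-1.46 to -1.21) and -0.71 (-0.85 to -0.62). At 3 h it stayed past 2-fold with median-of-ratios and TMM factors (-1.06 and -1.11), where Pcf11 lay at -0.01 and -0.06.

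Xrn2 stood at 203 CPM in control cells, 198 CPM after 3 h and 236 CPM after 6 h. On the CPM scale the 6 h library was the high one. Its log2 ratio was 0.21 (0.17 to 0.26) against the control, 0.33 above the median gene, and 0.25 (0.20 to 0.30) against 3 h. The 3 h library did not differ from the control beyond counting error (-0.08 to 0.01), but median-of-ratios and TMM factors put it at 0.21 and 0.16. With those factors the ratio of 6 h against 3 h was only 0.02 and 0.03, so that difference rests on the CPM scaling.

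**Figure D2:**
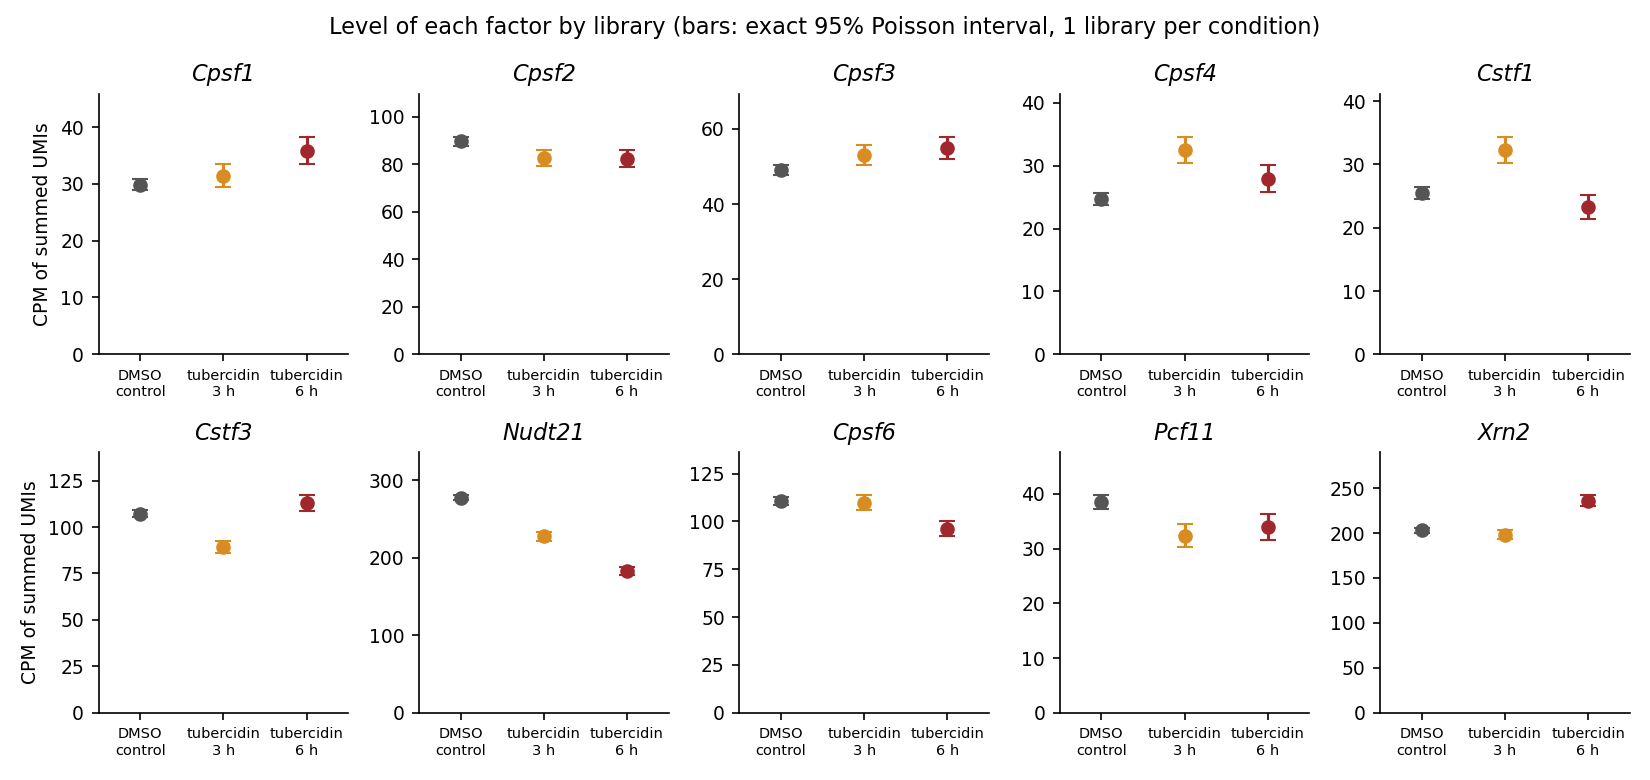
CPM of summed UMIs (y axis, from 0) for each of the 10 factors in the control, 3 h and 6 h libraries, with exact 95% Poisson intervals. Nudt21 is lower at each later time, at 277, 227 and 183 CPM, Cpsf4 and Cstf1 are highest after 3 h, Cstf3 is lowest after 3 h and Xrn2 is highest after 6 h.

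Scaling to a common total hides how few molecules were captured per cell. Nudt21 gave 14.3 UMIs per control cell, 2.87 after 3 h and 1.54 after 6 h, and Xrn2 gave 10.5, 2.50 and 1.99. Without scaling all 10 factors were lower in both treated libraries, by 3.11-fold (Cpsf4) to 4.98-fold (Nudt21) after 3 h and by 5.11-fold (Cpsf1) to 9.27-fold (Nudt21) after 6 h. With the pseudocount, the median log2 ratio of the 10 on this scale was -2.02 after 3 h and -2.47 after 6 h, near that of the median gene, -2.16 and -2.53. Read numbers were not analysed here, and depth cannot be told apart from RNA content on this scale.

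To compare cells at equal depth, each cell was thinned to 4000 UMIs, which left out 0, 122 and 284 cells of the control, 3 h and 6 h. Nudt21 was seen in 66.8% of control cells (Clopper-Pearson interval 64.7 to 68.8%), 59.1% after 3 h (57.0 to 61.1%) and 52.9% after 6 h (51.0 to 54.8%), against 99.9%, 88.6% and 75.1% before thinning. Xrn2 was seen in 55.0%, 53.9% and 60.3% of thinned cells, and only the 6 h interval (58.4 to 62.2%) stood apart. Cstf3 was seen in 34.0%, 29.3% and 34.8%. Cpsf4 was seen in 9.60%, 12.6% and 10.3%, and Cstf1 in 9.55%, 12.0% and 8.71%. For these 5 genes the order of the libraries was that of the CPM, and so it was for Cpsf1 and Cpsf3. It was not for Cpsf2, Cpsf6 and Pcf11. For Cpsf4 and Cstf1 the intervals of libraries next to each other in this order overlapped, and for Cstf3 those of the control and 6 h. Thinning brings every cell to a common total, as CPM does for a library. A shared order is therefore no separate check of the CPM scaling. The lower Nudt21 share after 3 h than in the control rests on that common total as well. Before thinning the share was highest for all 10 in the control, the library with most UMIs per cell; the ranges over the 10 were 68.2 to 99.95% in control cells, 31.5 to 88.6% after 3 h and 17.3 to 78.7% after 6 h.

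The 10 factors together gave 3.82 ± 2.03 UMIs per thinned control cell, 3.58 ± 2.03 after 3 h and 3.51 ± 1.93 after 6 h (SD over cells, which are not replicates), and 1.92%, 3.17% and 3.10% of cells had no UMI of any. Variance over mean of a single member's UMIs lay between 0.934 (Nudt21 after 6 h) and 1.14 (Cpsf2 after 3 h) in all 30 combinations of gene and library, where counting alone gives a value of 1; at so few UMIs per cell this ratio shows little of how cells differ. For the 10 summed it was 1.07 in control cells, 1.15 after 3 h and 1.06 after 6 h. No cell type that lacks the genes was present to give a background share.

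**Figure D3:**
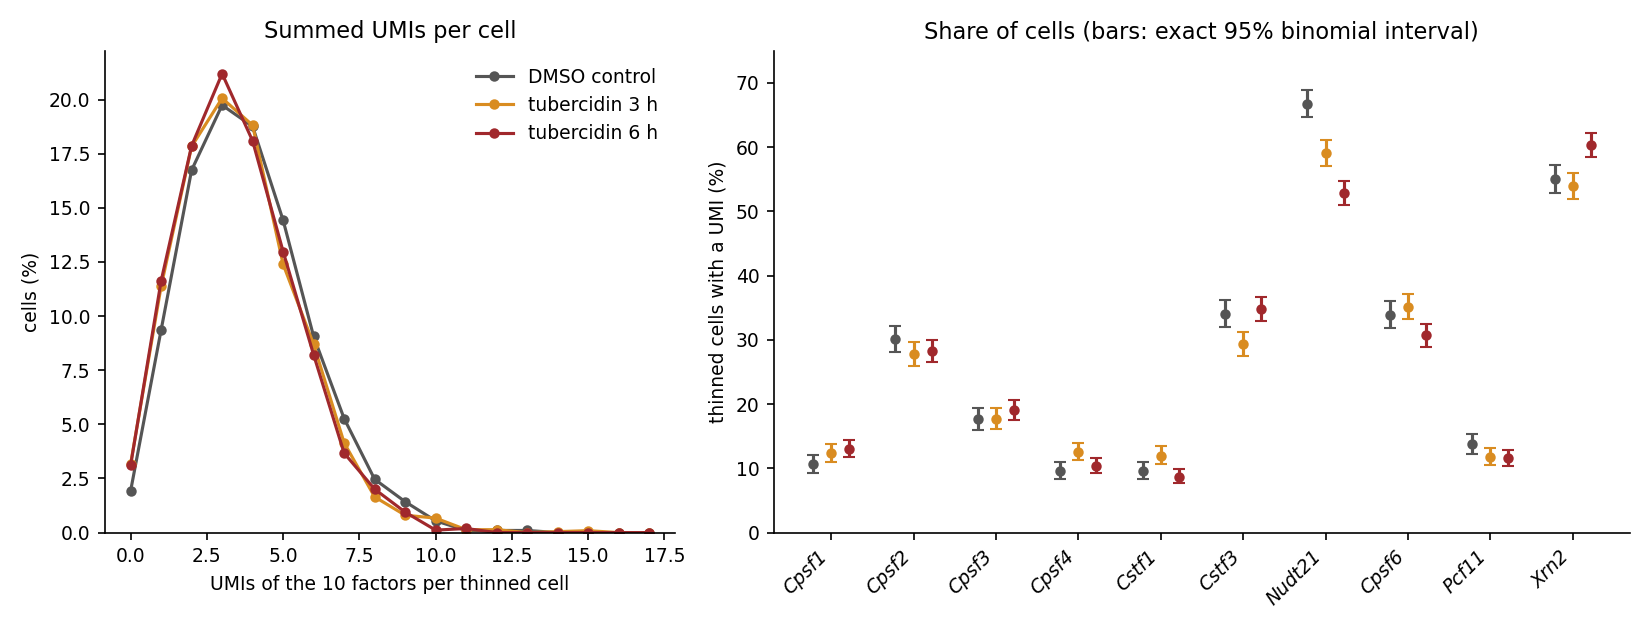
Left, percent of cells (y axis) by the number of UMIs of the 10 factors in a cell thinned to 4000 UMIs (x axis), for the 3 libraries, which overlap closely. Right, percent of thinned cells with at least 1 UMI of each factor, with exact 95% binomial intervals; Nudt21 goes from 66.8% in control cells to 52.9% after 6 h.

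Within each library cells with fewer UMIs than the median cell were set against cells with more. For Nudt21 these were alike: 279 and 276 CPM in control cells, 229 and 226 CPM after 3 h, and 179 and 185 CPM after 6 h. Its 6 h ratio against the control was -0.64 among cells with fewer and -0.57 among cells with more UMIs. For Cstf1 the 3 h ratio was 0.32 and 0.33 in the same order, and for Cpsf4 0.45 and 0.34. Cstf3 after 3 h was at -0.15 and -0.33, and Xrn2 after 6 h at 0.15 and 0.25. These 5 ratios thus kept their sign among cells of either kind. Cpsf6 did not after 3 h, where it stood at 123 CPM in cells with fewer UMIs and 103 CPM in cells with more, giving ratios of 0.13 and -0.09. Between 6 h and 3 h the sign turned for Cpsf1 (-0.03 and 0.28) and Cpsf2 (-0.05 and 0.02). It also turned for Cpsf3 (-0.07 and 0.11) and Pcf11 (-0.13 and 0.17), and held for the other members. The largest contrast of the 30 was that of Cpsf1 after 6 h, with 30.4 CPM in cells with fewer and 38.6 CPM in cells with more UMIs, a log2 difference of -0.35 (-0.56 to -0.13).

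Free RNA was read from 10000 barcodes per library that lie below the called cells by UMI rank. All 10 factors were present there. The median log2 difference of the 10 from the cells of the same library was -0.07 in the control, -0.35 after 3 h and -0.20 after 6 h, where the median of all genes was -0.25, -0.41 and -0.36. Nudt21 stood at 223 (207 to 239), 211 (192 to 231) and 154 CPM (134 to 176) in the control, 3 h and 6 h libraries. The control and 3 h intervals overlapped, and that of 6 h lay below both. Pcf11 alone was higher outside cells in each library, at 51.3 against 38.5 CPM in the control, 37.4 against 32.3 CPM after 3 h and 46.0 against 33.9 CPM after 6 h, and the intervals of the difference lay above 0 in the control (0.19 to 0.63) and after 6 h (0.05 to 0.81) but held 0 after 3 h (-0.14 to 0.54). Cpsf1 and Cpsf2 after 3 h were the most depleted, with 14.0 and 38.4 CPM outside cells against 31.4 and 82.7 CPM within. Removing free RNA at 10% of UMIs left Nudt21 at -0.60 after 6 h.

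The remaining core factors of cleavage and polyadenylation had ratios from -1.29 to 0.89 after 3 h, a wider range than that of the 10. Of 12 such genes 2 were at least 2-fold lower after 3 h and none after 6 h, with median log2 ratios of -0.34 and -0.08. Of all genes averaging 10 CPM or more, 5.54% and 4.41% were lower by as much. The 3 h calls were Clp1 and Rbbp6, a zinc finger factor of the complex that stood at 145 and 68.8 CPM in control cells and after 3 h (-1.06, and -0.82 with median-of-ratios factors; it was named after its values were seen). Pabpn1, the nuclear poly(A)-binding protein that helps poly(A) polymerase to extend the tail, was the highest, at 283 CPM in control cells, 528 CPM after 3 h and 494 CPM after 6 h. Its ratios of 0.89 (0.87 to 0.92) and 0.80 (0.77 to 0.83) were short of 2-fold, and reached 1.14 after 3 h with median-of-ratios factors. In GENCODE M21 Pabpn1 overlaps Gm20521 on its own strand, and of the genes named below Fip1l1, Ints5, Ints7 and Exosc3 overlap a predicted gene and Cstf2, Ppp1r10 and Srrt a microRNA gene in the same way. The values of Pabpn1 and these other genes are uncertain to that extent. This same-strand search took all genes of GENCODE M21, unlike that of the members, and none of the overlapping genes it found is in the files. On the opposite strand, genes of the files overlap Cpsf7, Cstf2, Fip1l1, Cdkn2aip, Ints12, Zfp473, Snrpa, Exosc3 and Mtrex. Rbbp6 was not searched.

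The direct partners of the members were mixed. Cstf2, the CstF subunit that binds RNA, stood at 30.8 CPM in control cells and 22.9 CPM after 3 h, with a 6 h interval of 20.2 to 23.9 CPM, and was lower at both times (-0.41 and -0.47). Fip1l1, the CPSF subunit that recruits poly(A) polymerase, stood at 138, 94.7 and 107 CPM (-0.54 and -0.36). Wdr33, which binds AAUAAA together with CPSF4, stood at 144, 153 and 163 CPM (0.09 and 0.18), and the poly(A) polymerase gene Papola at 199, 225 and 233 CPM (0.17 and 0.23). Sympk, the scaffold symplekin, was at 31.9, 35.2 and 50.04 CPM, and its 6 h ratio of 0.63 (0.55 to 0.74) was the second highest of the list. Within CstF the 6 h ratios were -0.13 for Cstf1, -0.47 for Cstf2 and 0.07 for Cstf3. Cstf2t, a related gene of the list, was within counting error of the control after 6 h (-0.09, interval -0.30 to 0.11). It averaged 9.59 CPM, was named after its values were seen and was not searched for overlaps.

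Among 14 genes of transcription termination, 1 was at least 2-fold higher and 1 lower after 3 h, and likewise after 6 h. Of all genes averaging 10 CPM or more, 0.888% were higher and 5.54% lower by as much after 3 h. After 6 h these shares were 2.33% and 4.41%. The high one was Ppp1r10, a targeting subunit of protein phosphatase 1 that acts on the polymerase past the poly(A) site, at 51.7, 131 and 149 CPM, with log2 ratios of 1.32 (1.28 to 1.40) and 1.51 (1.47 to 1.59). It stayed past 2-fold with median-of-ratios factors (1.56 and 1.53) and TMM factors. Nkrf, a partner of XRN2, stood at 13.3, 5.59 and 6.00 CPM, with ratios of -1.12 and -1.03, the 3 h one -0.91 with median-of-ratios factors. It averaged under 10 CPM, so it was not among the genes behind those shares. Cdkn2aip, which encodes a protein that binds XRN2, stood at 15.8, 10.3 and 12.5 CPM (-0.57 and -0.32). Rprd1a was at 36.1, 40.3 and 53.0 CPM, with 0.54 after 6 h. The median of the list was -0.0015 after 3 h and -0.0053 after 6 h.

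Integrator, the complex that cuts small nuclear RNAs and promoter-near transcripts with a CPSF3-like enzyme, had 14 of 15 listed genes in the files and none past 2-fold. Among all genes averaging 10 CPM or more, 0.888% were 2-fold higher and 5.54% lower after 3 h. The 6 h shares were 2.33% and 4.41%, so a count of 0 among 14 is near the background. The Integrator medians were -0.18 after 3 h and -0.11 after 6 h. At 6 h the highest were Ints3, at 39.1 CPM in control cells and 70.3 CPM (0.83), and Ints7, at 53.5 and 89.8 CPM (0.74), and the lowest Ints5 and Ints12 (-0.41 and -0.40).

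The 5 genes of histone mRNA 3' end processing, which shares CPSF2 and CPSF3 but adds no tail, had ratios below 0 in both treated libraries, each with an interval below 0, and all were below the median gene. Of all genes 27.4% were above 0 after 3 h and 39.7% after 6 h. Lsm10 after 3 h (-0.30) lay within counting error of the median gene and was at -0.07 with median-of-ratios factors. Their median was -0.59 after 3 h and -0.77 after 6 h. Slbp, which encodes the protein that binds the histone stem-loop and whose level follows the cell cycle, stood at 210, 130 and 112 CPM (-0.68 and -0.89). Casp8ap2 was at 122, 51.6 and 54.0 CPM (-1.22 and -1.16), the 1 gene of the list past 2-fold. After 3 h it fell just short with median-of-ratios factors (-0.99). Of all genes 5.54% were 2-fold lower after 3 h and 4.41% after 6 h. Lsm10 and Lsm11, of the ring of the U7 particle, had 6 h ratios of -0.72 and -0.77, and Zfp473 of -0.54. Zfp473 averaged under 10 CPM, so it was not among the genes behind these shares. In the same libraries Cpsf2 and Cpsf3 had 6 h ratios of -0.12 and 0.16.

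The proteins of the U1 particle, which shields transcripts from cleavage at early poly(A) sites, were measured through 3 genes, none past 2-fold. A count of 0 among 3 is near the background. Among all genes 0.888% were 2-fold higher and 5.54% lower after 3 h, and 2.33% and 4.41% after 6 h. Snrpa stood at 167, 255 and 199 CPM (0.61 and 0.25), Snrpc at 164, 189 and 141 CPM (0.21 and -0.21), and Snrnp70 at 223, 223 and 233 CPM (-0.0002 and 0.06, the former 0.24 with median-of-ratios factors). Of 9 genes of nuclear RNA decay, 1 was at least 2-fold lower after 3 h and 2 after 6 h, against 5.54% and 4.41% of all genes. Exosc3, a cap subunit of the RNA exosome, stood at 60.9, 24.0 and 21.8 CPM (-1.31 and -1.44). Rbm7, of the complex that brings short-lived nuclear RNA to the exosome, was at 40.1, 20.3 and 16.2 CPM (-0.95 and -1.25). Mtrex, the exosome's helicase, and Srrt, which links the cap to decay, were the highest after 6 h, at 200 and 238 CPM against 135 and 147 CPM in control cells (0.56 and 0.69).

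**Figure D4:**
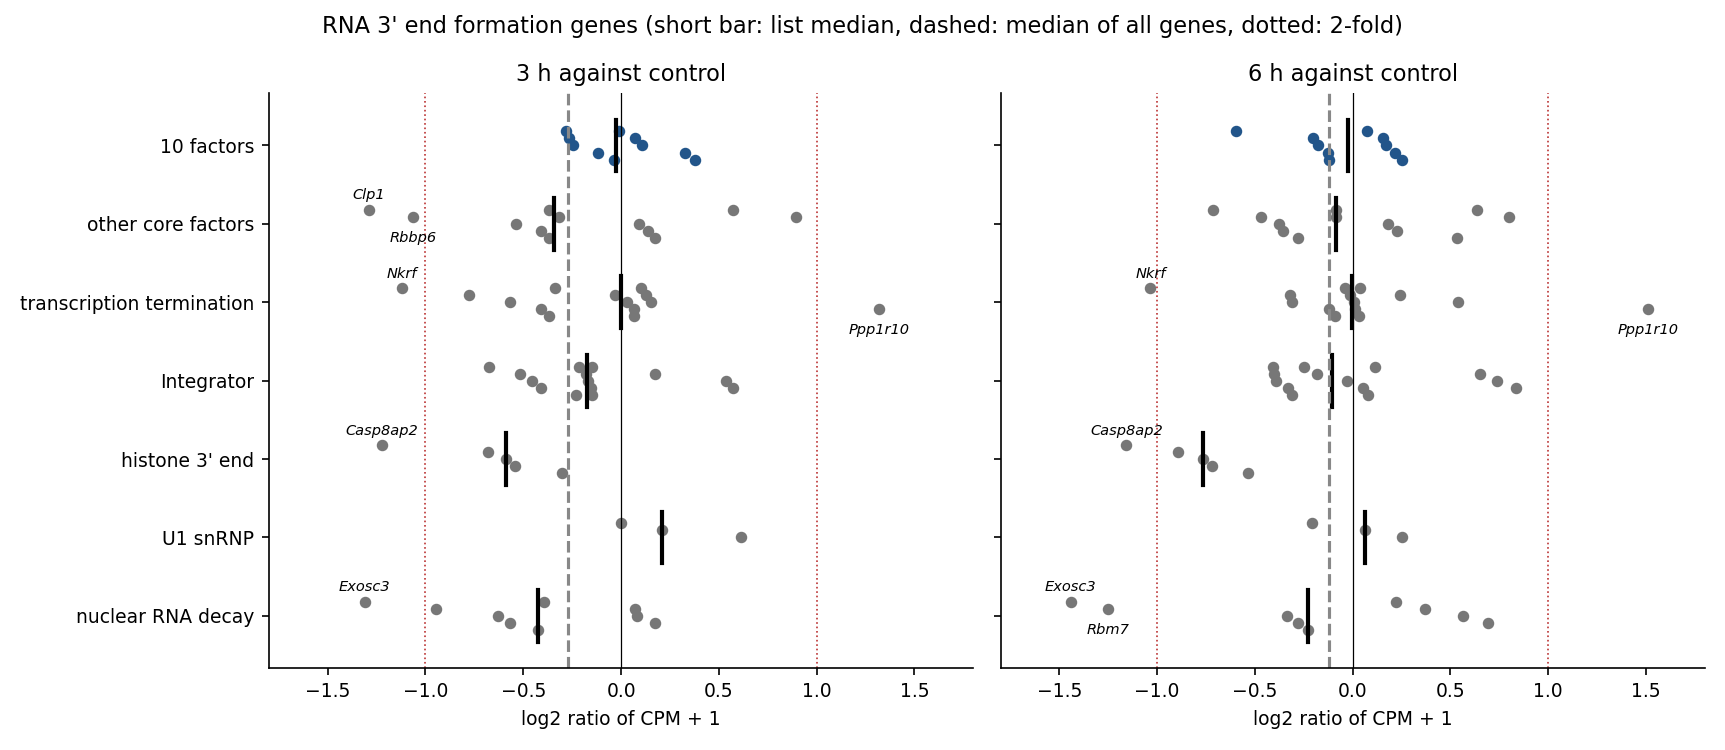
Log2 ratio of CPM + 1 (x axis) of each treated library over the control for the 10 factors (blue) and the other genes of RNA 3' end formation and nuclear RNA decay (grey), by list (y axis). Short bars are list medians, the dashed line is the median of all genes, and genes past 2-fold (dotted lines) are named; the 10 factors stay between -0.60 and 0.38, while Ppp1r10 reaches 1.51 and Exosc3 -1.44.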

How the data were processed

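The authors deposited raw UMI counts per gene and barcode for 3 libraries, which name Cell Ranger 7.1.0 in their header lines and, per the submitters' processing notes, the mm10 build. No cell filter had been applied to the deposited counts. The annotation and the use of intronic reads are not given in the sources used here. Cells were barcodes with at least 500 genes, at most 20% mitochondrial UMIs and no fewer UMIs than the 99th percentile of the 3000 largest barcodes divided by 10, which came to 11033, 2961 and 2107 UMIs. Doublets were kept, no caller was run, and cells were not clustered. A floor of 3 counts equals 0.0286, 0.100 and 0.122 CPM. Free RNA was summed over the barcodes past rank 5000 by UMIs, to rank 15000. With 1 library per group there was no test; ratios have conditional binomial intervals, levels Poisson intervals and shares Clopper-Pearson intervals. Genes at a mean of 10 CPM or more formed the background, and listed genes needed 1 CPM. All 10 members passed 10 CPM. The members and lists were chosen with earlier results of these data known. All members were named, and of each other list the 2 highest and 2 lowest 6 h ratios, every gene of lists of 5 or fewer, and direct partners of members; Ints15 was not matched by symbol. A listed gene is not reported here. Nearest genes were sought for the member with the largest ratio, since none was past 2-fold. The poly(A) signal transcript was that with the best APPRIS tag, then the longest. The statistics were run on counts simulated with known changes under the Poisson counting error that the intervals assume. That run could not show how far libraries of the same condition would differ. TMM factors came from edgeR 4.0.16 (R 4.3.3), and all else from scripts in Python 3.11.15 with scipy 1.17.1, pandas 2.3.3, numpy 2.4.6 and matplotlib 3.10.9. Alternatives covered cell choice, scaling, free RNA, cell weights, thinning, the pseudocount and the low-value filter.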

Additional observations from a re-analysis of the deposited data

Results flagged for a closer look

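On the CPM scale Cstf1 and Cstf3 lay on opposite sides of the control at 3 h and 6 h. Their counting intervals left out 0 at both times, with an upper bound of -0.0013 for Cstf1 at 6 h. Set against the median gene, Cstf1 at 6 h was only 0.0071 below it and Cstf3 at 3 h only 0.0083 above it. Cstf1 had log2 ratios of 0.33 and -0.13, and Cstf3 of -0.26 and 0.071. Both comparisons share the control library, and the difference between the times was not tested against replicates. Over the alternatives other than UMIs per cell, Cstf1 ranged from 0.32 to 0.56 at 3 h and from -0.16 to -0.11 at 6 h, and Cstf3 from -0.31 to -0.03 and from 0.003 to 0.10.

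Outside the called cells Xrn2 stood at 198 CPM at 6 h (interval 176 to 223), above 155 CPM in the control (142 to 169). In cells Xrn2 was also higher at 6 h, at 236 against 203 CPM. For no other member did the free-RNA interval at 3 h or 6 h lie wholly above that of the control. Cpsf1 at 6 h came near, at 35.4 CPM (26.3 to 46.6) against 22.5 CPM (17.8 to 28.1).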

How the results depend on the processing

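The count of members past 2-fold was 0 in every comparison under all alternatives run but UMIs per cell; the 2 low-value filters could not move it. UMIs per cell without scaling gave 10 at either time, with medians of -2.02 at 3 h, -2.47 at 6 h and -0.52 between the times, in place of -0.02, -0.03 and 0.02. Median-of-ratios factors moved the medians to 0.22 at 3 h and -0.20 between 6 h and 3 h, and TMM factors to 0.17 and -0.20. By their construction these scalings shift all genes alike. Of 270 single member ratios under the other 9 alternatives that could move them, 254 moved by less than their counting error. Cells without thinning had median shares with a UMI of 92.5%, 53.6% and 41.1% in the control, 3 h and 6 h, in place of 23.9%, 22.7% and 23.6%. Taking all barcodes below the cell minimum as free RNA gave a median of 54.0 CPM at 3 h and 69.6 CPM at 6 h, in place of 40.9 and 54.5 CPM.

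Genes of termination past 2-fold at 3 h numbered 1 in place of 2 with median-of-ratios factors, TMM factors or equal weight for each cell, those of histone processing 0 in place of 1 with median-of-ratios factors, and those of nuclear decay 2 in place of 1 after thinning. TMM factors gave 126 of all genes higher and 203 lower by 2-fold at 3 h. Between the times they gave 57 and 45. For all genes lower between 6 h and 3 h, subtraction of free RNA gave 23 and a pseudocount of 0.1 CPM gave 20, in place of 13. On UMIs per cell, 6 genes were higher and 7785 lower at 3 h, against 6 and 7818 at 6 h. Between the times these were 5 and 173. With UMIs per cell, 12, 13, 14, 5, 3 and 9 genes of the other lists were past 2-fold at 3 h and 12, 14, 14, 5, 3 and 9 at 6 h, in the order of the report. The low-value filter changed counts of all genes by the number of genes it let in: with a floor of 50 CPM 22 higher and 95 lower at 3 h, 42 and 75 at 6 h, 23 and 4 between the times; with no floor 226 and 855, 679 and 707, 389 and 33. Depth limited Cstf1 and Cpsf4 most, with 574 and 689 UMIs in the 6 h cells. No paired analysis was possible because each group has 1 library.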
